A study of Mus musculus with 16 samples.

Results

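Genes of lipid droplets and fatty acid use were followed in tissue of the mouse dorsal raphe nucleus (DRN), a small midbrain region rich in serotonin neurons: Plin4, Plin2, Plin3, Angptl4, Pnpla2, Lpl, Cpt1a, Pdk4 and Lipe. The 9 genes were looked up by symbol, and 8 of the 9 were among the 14504 genes with values; Lpl was not analysed here. The genes were chosen with the DEX response of these libraries already known, so their DEX differences are given as a description and without p-values.

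The libraries were made from polyA RNA of DRN tissue from adult male C57BL/6 mice aged 10 to 12 weeks. Control mice, without defeat and housed singly for 5 days, gave 3 libraries after saline (con_sal_102, con_sal_104 and con_sal_114) and 3 after dexamethasone (con_dex_101, con_dex_116 and con_dex_122). The other mice were put through chronic social defeat for 30 days and sorted by their behavior into a passive coping (PS) and an active coping (AS) phenotype. PS mice gave 2 saline libraries (PS_sal_62 and PS_sal_68) and 3 dexamethasone libraries (PS_dex_6, PS_dex_34 and PS_dex_64), and AS mice gave 3 saline libraries (AS_sal_8, AS_sal_14 and AS_sal_40) and 2 dexamethasone libraries (AS_dex_38 and AS_dex_42), always named and listed in this order. Dexamethasone (DEX), a synthetic agonist of the glucocorticoid receptor, was injected at 2 mg/kg and tissue was taken 6 h later; the injection came 24 h after the last stress session. The phenotypes come from a clustering of behavior, and the study left out some DEX samples with low Tph2, so the stressed DEX groups are a selection. The study describes more DRN libraries than the 16 used here. The control and saline groups too hold fewer libraries than its design, and why is not given in the sources used here. In a piece of tissue, fewer cells of a type and less RNA per cell cannot be told apart.

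A lipid droplet is a store of triglyceride and cholesterol ester wrapped in a single layer of phospholipid, and perilipins are the proteins that coat it. Stored triglyceride is released stepwise by lipases, the first of which is adipose triglyceride lipase, and the freed fatty acids are carried into mitochondria as acylcarnitines. In brain, droplets are best known from glia and ependymal cells, and glucocorticoids are known to shift peripheral tissues toward the use of fatty acids.

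Plin4 lies on chromosome 17 at chr17:56100591-56109803 on the minus strand of GRCm38 and encodes perilipin 4, a coat protein of adipocyte and muscle droplets. The middle of its transcript is an array of repeats of 99 bases, or 33 codons, which encode the part of the protein that lies on the droplet surface. An unbroken run of 26.6 such units, in which each unit matched the next at 60% or more of its bases, made up 45.7% of the transcript of 5756 bases. A stretch of 3 neighboring units from exon 5 (of 9), within the coding sequence, are shown because they bear on how reads of this gene can be placed. They are read from the GENCODE transcript, 5′ to 3′, and capitals mark the bases shared by all 3.
unit 1, chr17:56106304-56106402: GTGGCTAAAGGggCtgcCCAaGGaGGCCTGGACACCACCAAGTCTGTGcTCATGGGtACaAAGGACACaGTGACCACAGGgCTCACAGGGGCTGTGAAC
unit 2, chr17:56106205-56106303: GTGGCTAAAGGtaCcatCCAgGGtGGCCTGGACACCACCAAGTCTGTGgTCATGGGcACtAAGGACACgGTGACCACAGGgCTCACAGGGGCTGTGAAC
unit 3, chr17:56106106-56106204: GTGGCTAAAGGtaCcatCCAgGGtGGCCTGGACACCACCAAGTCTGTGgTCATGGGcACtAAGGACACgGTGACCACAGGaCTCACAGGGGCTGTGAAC

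Because of the array, 17.4% of all 50-base words and 5.03% of all 150-base words of the Plin4 transcript occurred more than once within it. None of the 5100 different 50-base words in Plin4 transcripts occurred in a transcript of another gene. The 3′ end of Plin4 shares 17 bases with the gene Hdgfl2 on the opposite strand.

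The 250 bases before the RefSeq starts of Plin4 and Pnpla2, the genes called after DEX in every phenotype, are shown next, from build GRCm38.p6. Capitals mark a GC box (GGGCGG on either strand), of which this stretch held none in Plin4 and 2 in Pnpla2.
Plin4, chr17:56109783-56110032, minus strand: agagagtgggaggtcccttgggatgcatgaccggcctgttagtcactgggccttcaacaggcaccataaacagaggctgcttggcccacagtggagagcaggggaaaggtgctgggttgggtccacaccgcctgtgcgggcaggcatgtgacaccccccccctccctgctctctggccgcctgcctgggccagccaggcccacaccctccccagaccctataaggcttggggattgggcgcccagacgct
Pnpla2, chr7:141454938-141455187, plus strand: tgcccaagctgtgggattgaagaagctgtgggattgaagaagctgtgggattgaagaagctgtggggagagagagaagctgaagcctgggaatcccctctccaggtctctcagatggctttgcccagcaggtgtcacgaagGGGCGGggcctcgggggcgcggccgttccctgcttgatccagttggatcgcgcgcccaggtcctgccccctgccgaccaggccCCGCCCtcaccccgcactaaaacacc

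Promoters were listed for 7 of the 8 genes (8 starts in all, since Lipe has 2). A loose form of the palindrome bound by the glucocorticoid receptor, GNACA and TGTNC spaced by 3 bases, was in none of the 8 and in 0.387% of 32851 promoters. A form of the direct repeat bound by PPAR with RXR, AGGNCA given again after a space of 1 base, was likewise in none of the 8 and in 0.338% of all. The GC box was in 4 of the 8 (Cpt1a, Lipe, Plin3 and Pnpla2) and in 32.7% of all, and TATAAA was in none of the 8 and in 12.4% of all. Both strands were read over the 250 bases before each start, and the absence of a match says only that these letters are not in this stretch.

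Values are normalized counts, that is reads of a gene divided by the size factor of its library, and a log2 difference is taken on log2(normalized count + 1). The 16 libraries held 38207157 to 62447298 reads in the listed genes, and the 8 genes had between 67 (Angptl4) and 4477 (Plin4) reads in a library. The 6 glucocorticoid receptor targets used as a check were higher after DEX, averaged over the phenotypes, in limma with Benjamini-Hochberg adjustment: Fkbp5 by 2.15 (SE 0.06), Cdkn1a by 2.77 (SE 0.09), Zbtb16 by 2.17 (SE 0.11), Sgk1 by 1.21 (SE 0.08), Tsc22d3 by 0.79 (SE 0.09) and Per1 by 0.54 (SE 0.11) on the log2 scale, with adjusted p from 7.7e-11 (Fkbp5) to 0.0105 (Per1). All 10 serotonin neuron markers were found, and none was called between DEX and saline in limma, edgeR or DESeq2, with 1 at an unadjusted p under 0.05 in limma. Their summed level was 325872 to 460174 normalized counts after saline and 307105 to 450509 after DEX. Tph2 is among these markers, and the study left out DEX samples with low Tph2. The likeness of these markers between DEX and saline is thus partly set by that selection. None of the 8 adipocyte markers could be examined here, and libraries differed widely in ependymal markers, whose summed level of 11 genes ran from 1753 (PS_dex_6) to 22345 (PS_dex_64).

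**Figure D1:**
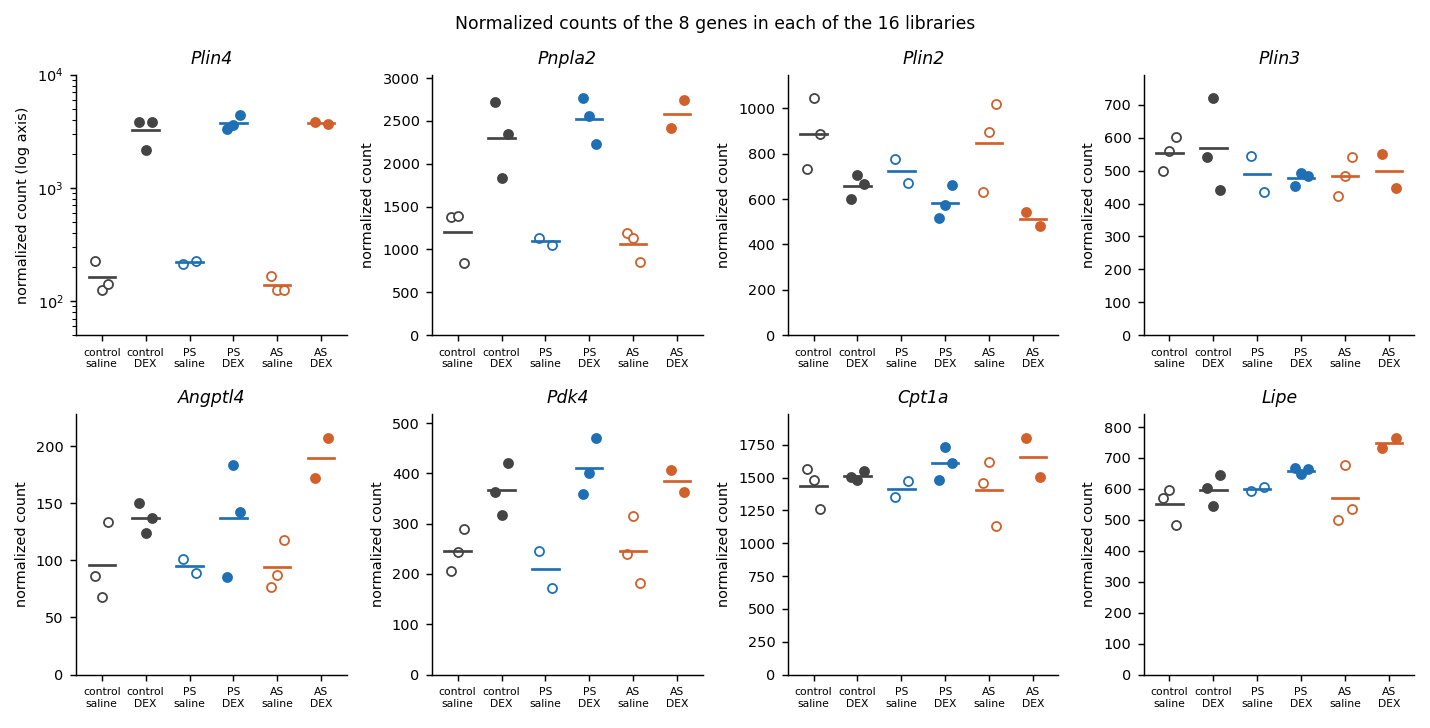
Normalized counts of the 8 genes (a panel each) in the 16 libraries by group, with open circles for saline, filled circles for DEX and a line at the group mean. The axis is logarithmic for Plin4 and linear from 0 for the others. Plin4 lay between 124.2 and 228.1 in the saline libraries and between 2169 and 4421 in the DEX libraries.

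Plin4 had the largest log2 difference between DEX and saline of all 14504 genes. In control mice it stood at 224.9, 124.2 and 142.0 normalized counts in libraries con_sal_102, con_sal_104 and con_sal_114, and at 3847, 2169 and 3799 in con_dex_101, con_dex_116 and con_dex_122. In PS mice it stood at 211.3 and 228.1 after saline and at 3283, 3594 and 4421 after DEX. In AS mice it stood at 167.9, 126.4 and 124.5 after saline and at 3842 and 3649 after DEX. The saline and DEX libraries did not overlap in any phenotype (every DEX library was higher for 8.51% of all genes in control, 11.2% in PS and 15.1% in AS mice and for 1.37% over all libraries), and the lowest DEX value, that of con_dex_116, was far above the highest saline value, that of PS_sal_68. The mean rose from 169 ± 46.2 (SD, n = 8) after saline to 3576 ± 652 (SD, n = 8) after DEX, a ratio of 21.2. The log2 difference was 4.31 (SE 0.24) in control, 4.08 (SE 0.27) in PS and 4.75 (SE 0.27) in AS mice.

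Per kb of exon, Plin4 went from near the bottom of the expressed genes to the upper range. Its level was 29.2 ± 8.00 normalized counts per kb (SD, n = 8) after saline, above that of 2.03% of genes, and 619 ± 113 (SD, n = 8) after DEX, above that of 74.2% of genes. After saline it was next to Angptl4 as the lowest of the 8 genes, and after DEX only Pnpla2 had a higher mean. Over the 16 libraries the deviation of Plin4 from its group mean had r between -0.41 (serotonin neurons) and 0.26 (endothelium) with those of 7 marker lists.

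Pnpla2 (chr7:141455198-141460743, plus strand) encodes adipose triglyceride lipase, which takes the first fatty acid off stored triglyceride. In control mice it stood at 1381, 1393 and 841.8 normalized counts after saline and at 2715, 1836 and 2347 after DEX. In PS mice the values were 1137 and 1053 after saline and 2764, 2560 and 2226 after DEX, and in AS mice they were 1196, 1137 and 856.7 after saline and 2420 and 2743 after DEX. Every DEX library was above every saline library. On the log2 scale the difference was 0.95 (SE 0.20) in control, 1.20 (SE 0.22) in PS and 1.29 (SE 0.22) in AS mice, and the ratio of the means over all libraries was 2.18. Deviations of Pnpla2 had r = -0.70 with those of the 10 astrocyte markers, of which 1 was higher and 1 lower after DEX. With the 10 microglia markers, of which 3 were lower and none higher, r was -0.58. The other lists gave r from -0.35 (ependymal) to 0.25 (mural). Averaged over phenotypes, 2.78% of all genes were called higher and 1.53% lower. The part of these cells in the Pnpla2 difference was not tested.

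In each phenotype on its own, Plin4 and Pnpla2 were the 2 of 8 genes called at an adjusted p under 0.1. In limma, calls took up 1.26% of all genes in control, 0.703% in PS and 0.689% in AS mice. These shares depended on the test. DESeq2 called 437 of all 14504 genes in control, 187 in PS and 274 in AS mice, and 904 in the average. Averaged over the 3 phenotypes, 5 of the 8 were called (Plin4, Pnpla2, Pdk4 and Angptl4 higher, Plin2 lower) against 4.31% of all genes, 2.78% higher and 1.53% lower; since the genes were chosen from this response, nothing is read from these counts. The median log2 difference was 0.45 over the 8 genes and -0.003 over all genes. The Pnpla2 call was lost without con_dex_101 or con_dex_122, without PS_sal_62, PS_sal_68 or PS_dex_34 and without AS_dex_38 or AS_dex_42, each in its own phenotype, and it held in the average without any single library. DESeq2, with 187 of all genes called in PS and 274 in AS mice, called 3 of the 8 genes in each. The added gene was Pdk4 in PS and Plin2 in AS mice.

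Pdk4 (chr6:5483351-5496309, minus strand) encodes a kinase that switches off pyruvate dehydrogenase and so spares glucose while fatty acids are burned. It stood at 205.1, 244.4 and 288.6 normalized counts in control saline and at 362.5, 317.4 and 420.9 in control DEX libraries. It stood at 246.4 and 173.0 in PS saline, at 359.6, 400.3 and 471.3 in PS DEX, at 239.7, 316.0 and 181.2 in AS saline and at 406.1 and 362.9 in AS DEX libraries. The lowest DEX value (317.4, con_dex_116) was just above the highest saline value (316.0, AS_sal_14), so the 8 DEX libraries were all above the 8 saline libraries. With Plin4 and Pnpla2, this made 3 of the 8 genes with every DEX library higher, against 1.37% of all genes. Since the genes were chosen with the DEX response known, nothing is read from this count. DEX and saline differed on the log2 scale by 0.58 (SE 0.22) in control, 0.98 (SE 0.25) in PS and 0.68 (SE 0.25) in AS mice, and 0.75 (SE 0.14) in the average. Deviations of Pdk4 from its group mean had r = -0.78 with those of the 10 oligodendrocyte markers, of which 4 were lower after DEX, and -0.73 with those of 9 mural markers; the part of these cells in the Pdk4 difference was not tested.

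Angptl4 (chr17:33773750-33781830, minus strand) encodes a secreted inhibitor of lipoprotein lipase. It was the least abundant of the 8 genes, with 86.2, 68.2 and 133.7 normalized counts in control saline and 149.9, 123.6 and 137.5 in control DEX libraries. PS mice gave 101.3 and 88.7 after saline and 85.8, 183.8 and 142.6 after DEX, and AS mice gave 77.0, 87.3 and 118.1 after saline and 171.7 and 207.5 after DEX. The groups overlapped in control mice, through con_sal_114, and in PS mice, through PS_dex_6. They were apart in AS mice, where every DEX library was higher for 15.1% of all genes. The average log2 difference was 0.68 (SE 0.19). This call was not stable: 12 of 16 fits with a library left out did not have it. The log2 difference itself moved little, between 0.60 and 0.78 over these 16 fits, and the call held under the 10 other alternatives.

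Plin2 (chr4:86648386-86670060, minus strand), which encodes the perilipin that coats droplets in most cells, went the other way. It stood at 734.1, 1045 and 886.1 normalized counts in control saline and at 601.8, 705.8 and 664.5 in control DEX libraries. In PS mice it stood at 775.1 and 669.3 after saline and at 518.3, 573.3 and 661.4 after DEX, and in AS mice at 631.2, 894.1 and 1021 after saline and at 543.5 and 482.9 after DEX. Within each phenotype every DEX library was below every saline library, as were 7.43% of genes in control, 10.1% in PS and 14.8% in AS mice; over all 16 libraries the ranges overlapped through AS_sal_8. The log2 difference was -0.42 (SE 0.18) in control, -0.31 (SE 0.20) in PS, -0.70 (SE 0.20) in AS mice and -0.48 (SE 0.11) in the average. The call in the average was lost without PS_sal_62 and without AS_dex_42.

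Some markers of microglia and oligodendrocytes were lower after DEX, as Plin2 was (1.53% of all genes were called lower). Of the 10 microglia markers 3 were lower after DEX (Cx3cr1, P2ry12 and Aif1) and none higher, and their summed level was 9102 to 14228 normalized counts after saline and 8251 to 9917 after DEX. Of the 10 oligodendrocyte markers 4 were lower (Opalin, Ermn, Mog and Cnp) and none higher, with a summed level of 137505 to 225802 after saline and 134935 to 189893 after DEX. Over the 16 libraries the deviation of Plin2 from its group mean had r = 0.79 with that of the 10 astrocyte markers, 0.67 with that of the 11 ependymal markers and 0.66 with that of the 10 microglia markers, but -0.515 with that of the 10 oligodendrocyte markers. It was 0.62 with the 10 serotonin neuron markers, -0.37 with the 13 endothelial markers and -0.39 with the 9 mural markers. Of the 10 astrocyte markers 1 was higher and 1 lower after DEX, with a median log2 difference of 0.005. The libraries share tissue pieces and depth, and the part of these cells in the Plin2 difference was not tested.

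Plin3 (chr17:56277476-56292873, minus strand), which encodes a perilipin that sits in the cytosol and on young droplets, showed no difference that stood out from its spread. Its lowest and highest values were 423.0 and 601.2 normalized counts after saline and 441.3 and 719.7 after DEX. On the log2 scale the difference was 0.01 (SE 0.18) in control, -0.03 (SE 0.20) in PS and 0.05 (SE 0.20) in AS mice, with an average of 0.01 and a 95% interval from -0.23 to 0.25.

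Lipe and Cpt1a, which act after adipose triglyceride lipase, were not called in any DEX comparison. Lipe (chr7:25379527-25398710, minus strand) encodes hormone-sensitive lipase, which cuts diacylglycerol; it stood at 570.6, 597.7 and 482.2 normalized counts in control saline and at 603.0, 544.4 and 645.0 in control DEX libraries. It stood at 592.0 and 606.6 in PS saline, at 667.1, 647.0 and 663.6 in PS DEX, at 499.9, 675.7 and 535.4 in AS saline and at 733.4 and 766.1 in AS DEX libraries. The ranges overlapped in control mice. They were apart in PS and AS mice, where every DEX library was higher for 11.2% and 15.1% of all genes. DEX and saline differed on the log2 scale by 0.12 (SE 0.13) in control, 0.14 (SE 0.15) in PS and 0.41 (SE 0.15) in AS mice. An antisense gene, 4732471J01Rik, covers all of Lipe, and without knowing that strand was used in counting, Lipe values are uncertain.

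Cpt1a (chr19:3322334-3385733, plus strand) encodes the carnitine palmitoyltransferase of the outer mitochondrial membrane, the entry step for long-chain fatty acids. Its values ran from 1129 (AS_sal_40) to 1618 (AS_sal_14) normalized counts after saline and from 1481 (con_dex_116) to 1804 (AS_dex_38) after DEX. In PS mice the ranges were apart, at 1352 and 1473 after saline and at 1482, 1733 and 1612 after DEX. In control and AS mice they overlapped. The log2 difference was 0.08 (SE 0.13) in control, 0.19 (SE 0.15) in PS and 0.25 (SE 0.15) in AS mice.

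**Figure D2:**
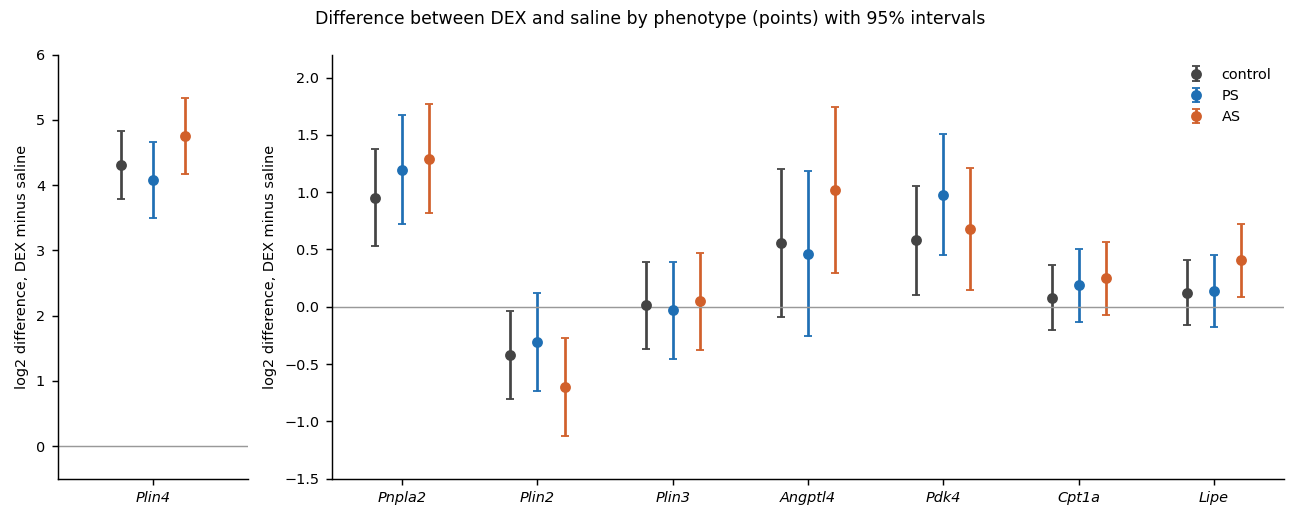
Log2 difference between DEX and saline (vertical axis) of each gene in control, PS and AS mice, with 95% intervals from limma; Plin4 has its own panel and scale. The Plin4 points sit between 4.08 and 4.75, the Pnpla2 points between 0.95 and 1.29, and the Plin2 points are all below 0.

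The order of the 8 genes by level per kb of exon changed with DEX. After saline the means in normalized counts per kb were 372 for Pnpla2, 237 for Plin2, 185 for Cpt1a, 135 for Plin3, 96.8 for Lipe, 67.4 for Pdk4, 29.2 for Plin4 and 26.8 for Angptl4. Neighbors in this order overlapped in their range over libraries for Pnpla2 with Plin2, Plin2 with Cpt1a, Cpt1a with Plin3, Plin3 with Lipe, Lipe with Pdk4 and Plin4 with Angptl4; Pdk4 and Plin4 were apart. After DEX the means were 812 for Pnpla2, 619 for Plin4, 207 for Cpt1a, 169 for Plin2, 136 for Plin3, 112 for Lipe, 110 for Pdk4 and 42.5 for Angptl4. Then Plin4 was apart from Cpt1a, and Pdk4 from Angptl4, and the other neighbors overlapped.

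The make-up of the perilipin transcripts turned over. Plin2, Plin3, Plin4 and Plin5 were summed per kb of exon; Plin5, the neighbor of Plin4 on chromosome 17, encodes the perilipin that ties droplets to mitochondria. Plin4 was 3.98% to 10.4% of this sum in the saline libraries and 44.8% to 67.4% in the DEX libraries. Plin2 was 52.0% ± 2.39 of it after saline and 16.9% ± 3.16 after DEX (SD, n = 8 each). The sum itself was 454 ± 67.7 normalized counts per kb (SD, n = 8) after saline and 1016 ± 145 (SD, n = 8) after DEX. Plin4 was lower than Plin2 per kb in each saline library, at 0.072 to 0.207 of it, and higher in each DEX library, at 1.87 to 4.59 times Plin2. Library con_dex_116 marked the low end, and without it the lowest DEX ratio was 3.48.

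**Figure D3:**
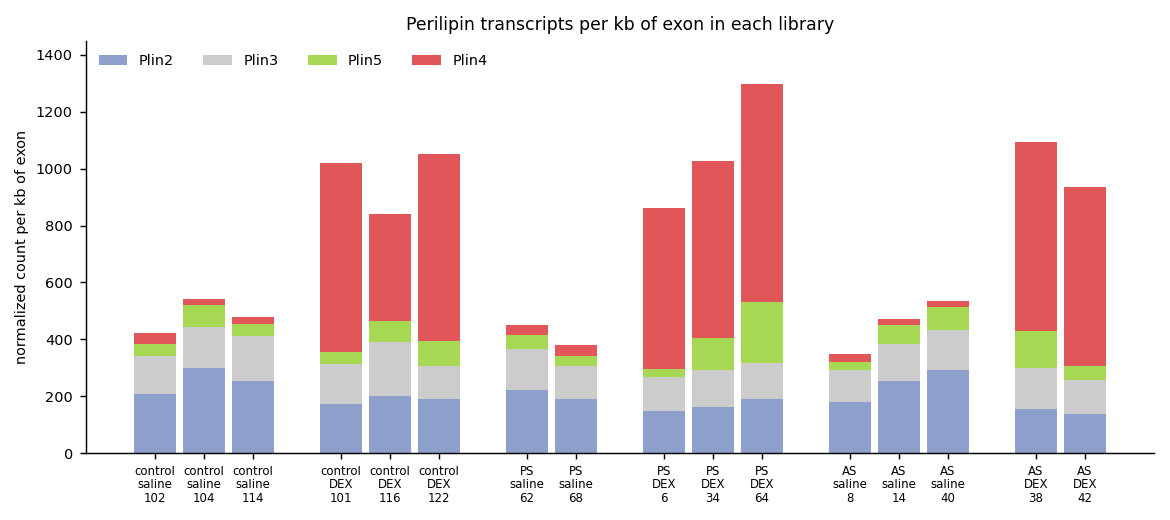
Stacked bars of Plin2, Plin3, Plin5 and Plin4 in normalized counts per kb of exon, 1 bar for each library, ordered by group. Plin4 is the thin top segment in the 8 saline libraries and makes up 44.8% to 67.4% of the bar in the 8 DEX libraries.

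Library con_dex_116 stood apart among the 8 DEX libraries. It had the lowest value of Plin4, Pnpla2, Cpt1a, Pdk4 and Lipe and the highest of Plin2 and Plin3, that is 7 of the 8 genes. For Cpt1a this was nearly a tie, with 1481 normalized counts against 1482 in PS_dex_6. Without it, the Plin4 log2 difference in control mice was 4.59 rather than 4.31, and the calls stayed at 2 in control mice and at 5 in the average.

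Whether chronic stress or coping phenotype moved these genes was asked in 11 comparisons, and none of the 8 genes was called in any of them (limma, Benjamini-Hochberg adjustment over 14504 genes). At an unadjusted p under 0.05 in limma, 1 of the 8 passed in AS against PS mice under saline (Plin4), against 494 of all 14504 genes. In AS against control mice under DEX 1 passed (Lipe), against 508 of all 14504 genes, and none passed in the other 9 comparisons. Among all genes limma called 1 gene (Gm11583, 0.00689% of all) in AS against control mice under DEX, 2 (Gm11583 and Gm28364, 0.0138%) in AS against control mice averaged over treatments, and none in the other 9. At an unadjusted p under 0.05 those 9 had 178 to 1112 genes. These counts over all genes depended on the test and on con_sal_102: AS against control mice had 37 calls averaged over treatments, 11 under saline and 12 under DEX in DESeq2, and 36, 20 and 8 in limma without con_sal_102. PS against control mice under saline had 4 calls in DESeq2 and 15 in limma without con_sal_102. AS against PS mice had 1 under saline and 5 under DEX in DESeq2, and 0 and 6 in limma without con_sal_102. DESeq2 and the edgeR quasi-likelihood test called none of the 8 genes either.

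Under saline Plin4 had its highest mean in PS mice. The PS values of 211.3 and 228.1 normalized counts were above the 3 AS values, which reached 167.9, and lay beside con_sal_102 at 224.9. The log2 difference between AS and PS mice under saline was -0.66 (SE 0.27, 95% interval -1.24 to -0.08), with an adjusted p of 0.728 in limma. PS mice against control mice under saline gave 0.47 (SE 0.27, 95% interval -0.11 to 1.05), and AS mice against control mice gave -0.19 (SE 0.24, 95% interval -0.71 to 0.32), with adjusted p of 0.571 and 0.998 in limma. The order of the saline group means, 140 ± 24.5 (AS, n = 3), 164 ± 53.7 (control, n = 3) and 220 ± 11.9 (PS, n = 2) normalized counts, was thus not backed by an adjusted p.

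Under DEX the groups were closer. Plin4 means were 3272 ± 955 (control, n = 3), 3766 ± 588 (PS, n = 3) and 3745 ± 137 (AS, n = 2) normalized counts, and the log2 difference was 0.24 (95% interval -0.28 to 0.76) for PS against control, 0.24 (-0.34 to 0.82) for AS against control and 0.003 (-0.58 to 0.58) for AS against PS mice. For both differences from control the sign turned without con_dex_116, to -0.03.

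No difference in the DEX effect on Plin4 between phenotypes was called, and the 95% interval of each spanned 0. The effect was 0.67 larger on the log2 scale in AS than in PS mice (SE 0.38, 95% interval -0.15 to 1.49, limma adjusted p = 0.870), 0.44 larger in AS than in control mice (SE 0.36, -0.34 to 1.22, adjusted p = 0.941) and 0.23 smaller in PS than in control mice (difference -0.23, SE 0.36, -1.01 to 0.55, adjusted p = 0.9996).

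Lipe was the other gene with an unadjusted p under 0.05. AS mice were 0.33 higher than control mice under DEX on the log2 scale (SE 0.15, 95% interval 0.01 to 0.65, limma adjusted p = 0.990), with 733.4 and 766.1 normalized counts in AS against 544.4 to 645.0 in control libraries. Of the remaining genes, the differences between phenotypes and between DEX effects lay between -0.39 (Plin2, DEX effect in AS against PS mice) and 0.56 (Angptl4, the same comparison).

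**Figure D4:**
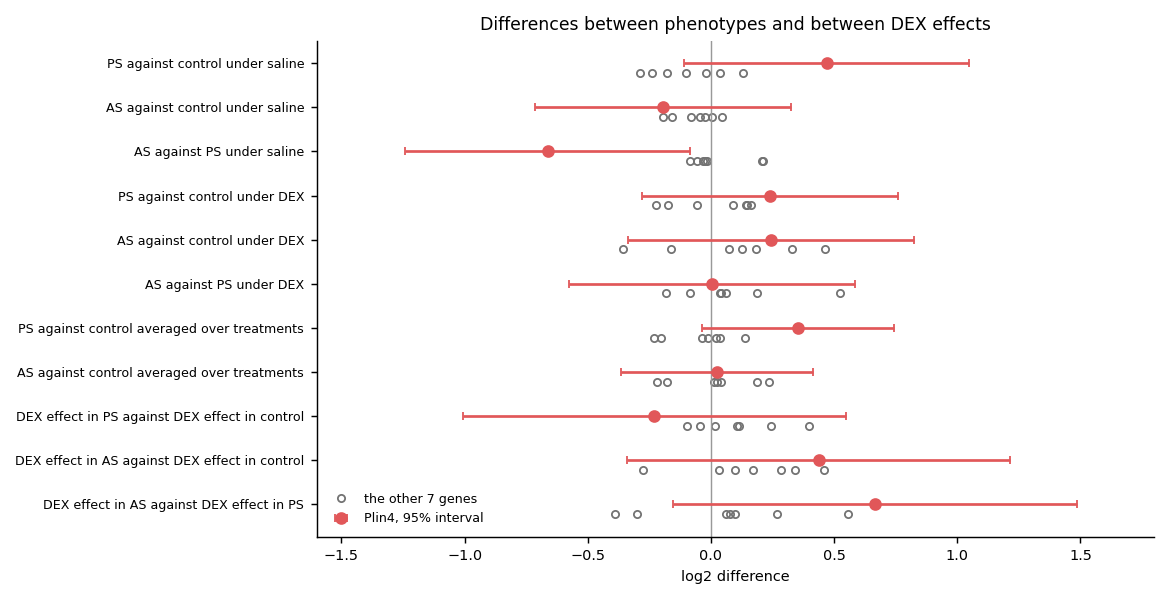
Log2 difference (horizontal axis) in the 11 comparisons between phenotypes and between DEX effects, with Plin4 as a red point with its 95% interval and the other 7 genes as open circles. The Plin4 interval crosses 0 in 10 comparisons and lies between -1.24 and -0.08 for AS against PS mice under saline.

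The pathway around the 8 genes was read from 9 lists, of which 138 of 158 genes beyond the 8 had values. The lists were chosen with earlier results of these data known. Nothing is therefore read from their counts beside those of all genes, and the adjusted p-values of their genes are a description. Averaged over the phenotypes, 9 of the 138 rose and 5 fell after DEX (10.1% called, against 4.31% of all genes), and their median log2 difference was -0.03. Within control, PS and AS mice 3 of the 138 (2.17%) were called in each, all higher, against 1.26%, 0.703% and 0.689% of all genes called in either direction. Mfsd2a and Klf15 were among the 3 in each phenotype, with Acaca in control and AS mice and Cebpa in PS mice.

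Of 17 further genes of the droplet coat and of lipolysis, none rose and only Ldah, which encodes a droplet-bound hydrolase, fell, by 0.26 on the log2 scale (SE 0.07, limma adjusted p = 0.0525). Its mean went from 1486 ± 106 to 1248 ± 173 normalized counts (SD, n = 8 each). Plin5 stood at 110 ± 38.5 after saline and 192 ± 126 after DEX (SD, n = 8 each), a log2 difference of 0.64 (SE 0.39, limma adjusted p = 0.475). Plin1 and Ppara were not analysed here.

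Of 20 genes of fatty acid uptake and of the handling of lipoprotein lipase, 3 rose and 1 fell. Mfsd2a, the transporter that carries lysophospholipids with long-chain fatty acids across the blood-brain barrier, rose by 1.42 (SE 0.09, limma adjusted p = 6.7e-07), from 902 ± 117 to 2384 ± 293 normalized counts (SD, n = 8 each). Its values ran from 720.1 to 1041 after saline and from 1794 to 2742 after DEX, so that no library overlapped. Fabp3, a cytosolic fatty acid carrier, rose by 0.44 (SE 0.11, adjusted p = 0.0573 in limma) and Lmf1, which matures lipases in the endoplasmic reticulum, by 0.32 (SE 0.09, adjusted p = 0.0674 in limma). Fabp7, the fatty acid carrier of radial glia and astrocytes, fell by 0.48 (SE 0.13, limma adjusted p = 0.0762).

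In the synthesis of lipids, 1 of 12 genes of triglyceride synthesis rose: Lpin1, the phosphatidate phosphatase that makes diacylglycerol, by 0.46 (SE 0.08, limma adjusted p = 0.00239). Of 16 genes of fatty acid synthesis 1 rose and 1 fell. Acaca, the acetyl-CoA carboxylase of the cytosol, rose by 0.65 (SE 0.08, limma adjusted p = 0.000295), from 7167 ± 1093 to 11430 ± 1102 normalized counts (SD, n = 8 each), and Elovl7, an elongase, fell by 0.48 (SE 0.13, limma adjusted p = 0.0669).

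None of 23 genes of mitochondrial fatty acid oxidation passed in limma or edgeR. In DESeq2 1 of them passed, against 904 of all 14504 genes. In limma 5 had an unadjusted p under 0.05, against 2033 of all 14504 genes, and the median log2 difference of the 23 was -0.04. None of 12 genes of peroxisomal oxidation passed in limma, edgeR or DESeq2 or had an unadjusted p under 0.05, and their median was -0.03. Of 7 genes of ketone body use, Slc16a1, a carrier of lactate and ketone bodies, fell by 0.38 (SE 0.10, limma adjusted p = 0.0485). Of 13 genes around pyruvate dehydrogenase, Pdp1, the phosphatase that works against Pdk4, rose by 0.33 (SE 0.09, limma adjusted p = 0.0598), from 3033 ± 425 to 3803 ± 399 normalized counts (SD, n = 8 each).

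Of 18 transcription regulators of lipid genes, 3 rose and 1 fell. Klf15 rose by 0.67 (SE 0.07, limma adjusted p = 7.9e-05), Foxo1 by 0.64 (SE 0.11, adjusted p = 0.00254 in limma) and Cebpa by 0.75 (SE 0.13, adjusted p = 0.00338 in limma). All 3 are known to act in the fasting or adipocyte programs. Rxrg, a retinoid X receptor, fell by 0.42 (SE 0.11, limma adjusted p = 0.0562).

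Within 100 kb of the Plin4 start, 6 other genes had values. None of them was called in limma, edgeR or DESeq2 or had an unadjusted p under 0.05 in limma. Averaged over phenotypes, 4.31% of all genes were called in limma, and 2033 of 14504 had such an unadjusted p. Plin5, whose start is 7.79 kb upstream, is given above, and Hdgfl2, whose 3′ end meets that of Plin4, stood at 3328 ± 302 normalized counts after saline and 3443 ± 165 after DEX, a log2 difference of 0.05 (SE 0.06, limma adjusted p = 0.705). Sh3gl1, Ubxn6, Sema6b and Mydgf had log2 differences from -0.13 (Mydgf) to 0.10 (Sh3gl1).

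**Figure D5:**
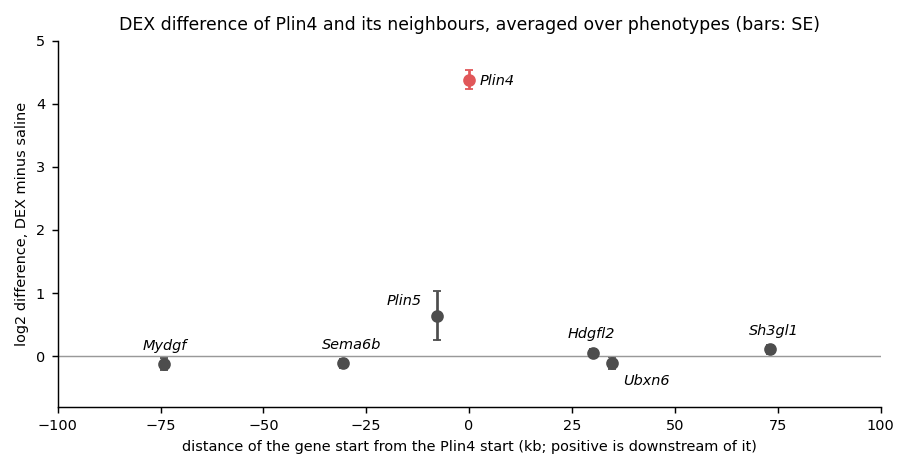
Log2 difference between DEX and saline averaged over phenotypes (vertical axis, bars are SE) against the distance of each gene start from the Plin4 start in kb. Plin4 is at 4.38, Plin5 at 0.64, and the other 5 genes are between -0.13 and 0.10.

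Among 12863 genes with a mean of at least 100 normalized counts, those most like Plin4 over the 16 libraries, by Pearson's r of the log2 values, were Fkbp5 (r = 0.99), Cdkn1a (0.99), Hr (0.98), Mxd4 (0.98) and Pla2g3 (0.98). This likeness is set by DEX, since all 5 were higher in each DEX library than in each saline library. When each value was taken as the deviation from its group mean, r with Plin4 was 0.77 for Hr, 0.77 for Pla2g3 and 0.66 for Mxd4, but 0.14 for Fkbp5 and 0.07 for Cdkn1a. The genes most like Plin4 in these deviations were Gm16835 (r = 0.94), Scmh1 (0.92), Gm37814 (0.91), A930012L18Rik (0.90) and Nr6a1 (0.89), whose DEX differences were between 0.10 and 0.61 on the log2 scale. All r are descriptions over 16 libraries that share size factors and tissue pieces.

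Between the 8 genes themselves, deviations from the group mean were most opposed for Plin4 and Plin3 (r = -0.67, and -0.42 without con_dex_116) and most alike for Plin2 and Plin3 (r = 0.58). Plin4 and Plin2 gave r = -0.55, Plin4 and Pnpla2 gave 0.41, and Pnpla2 and Lipe gave 0.56. Leaving out any 1 library kept the first between -0.73 and -0.42 and the r of Plin4 with Pnpla2 between 0.18 and 0.66.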

How the data were processed

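PolyA RNA of the DRN was sequenced in 16 libraries from 6 groups, and libraries were grouped by their labels alone. Per the labels, libraries were strand-specific and paired-end. The submitters' processing notes name fastp 0.20.1, HISAT2 2.2.1, featureCounts from Subread 2.0, DESeq2 1.36.0 and the genome GRCm38 (mm10); whether strand was used in counting is not given in the sources used here. The values deposited by the authors are a signal: normalized counts, gene counts divided by 1 DESeq2 size factor per library. In each library 100% of them were whole reads (within 0.01) once multiplied by its factor, which gave a depth of 38207157 to 62447298 reads. The authors' deposited tables of comparisons hold log2 fold changes, p-values and adjusted p-values by the authors and were not used.

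Because the values are not counts, limma was run on log2(normalized count + 1) with 6 group means (limma 3.58.1 in R 4.3.3, eBayes with a trend, 10 residual and 3.88 prior degrees of freedom), and p-values were adjusted by Benjamini-Hochberg over all 14504 genes in each of 15 comparisons. Genes whose adjusted p was under 0.1, as in the study, were called. A pseudocount of 1 understates changes of low genes. Alternatives were TMM scaling, quantile normalization, a pseudocount of 0.1 or 10, a minimum mean of 100 or a minimum of 10 reads in every library, edgeR 4.0.16 and DESeq2 1.42.0 on the recovered reads, robust eBayes, library weights, the compared groups alone, and each library left out in turn.

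The 9 genes and the lists of pathway and marker genes were chosen with earlier results of these data known. Named were the 9 genes, up to 4 called genes per pathway list with the smallest p, Plin5, Plin1 and Ppara, the 6 glucocorticoid targets, the 5 genes most like Plin4 by each of 2 measures of r, and genes whose start lies within 100 kb of that of Plin4. Gene positions, exon lengths and transcripts came from GENCODE vM21 of GRCm38, and promoters from RefSeq (GRCm38.p6). Control mice were housed singly for 5 days, and each defeated mouse was kept in a compartment beside an aggressive mouse. Whether the mice of a group came from separate rearing cages or days is not said, so p-values measure the spread between these libraries.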

Additional observations from a re-analysis of the deposited data

How the results depend on the processing

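No paired analysis was possible because the library numbers in the labels differ between the groups compared. The number of the 8 genes called was 2 in each phenotype and 5 in the average over phenotypes. In control mice it was 1 with the compared groups alone and 1 to 2 with 1 library left out. In PS mice it was 3 with DESeq2 and with library weights, each adding Pdk4, and 1 to 3 with 1 library left out. In AS mice it was 1 with the compared groups alone, 3 with DESeq2 (adding Plin2), 4 with library weights (adding Plin2 and Angptl4) and 1 to 3 with 1 library left out. In the average it was 3 to 5 with 1 library left out and 5 under each other alternative. It was 0 in the 11 comparisons between phenotypes and between DEX effects under every alternative run. Of all 14504 genes, library weights called 529 in PS and 1402 in AS mice, and DESeq2 called 187 and 274. Each count is above that of limma without weights in the same phenotype. Nothing is therefore read from the Pdk4, Plin2 and Angptl4 calls added there. Of 856 recomputed DEX differences of the 8 genes 16 changed sign, all of Cpt1a or Plin3 and none of a called value. For Plin4, which was not called in them, the sign turned in 5 comparisons. AS against PS mice under DEX gave -0.0032 with TMM, -0.011 with quantile normalization, -0.014 with edgeR, -0.0081 with DESeq2 and -0.090 to 0.12 with 1 library left out. AS against control mice averaged over treatments gave -0.028 with quantile normalization, -0.0074 with edgeR, -0.015 with DESeq2, -0.16 with library weights and -0.11 to 0.15 with 1 library left out. With 1 library left out, AS against control mice gave -0.37 to 0.057 under saline and -0.030 to 0.38 under DEX, and PS against control mice gave -0.033 to 0.38 under DEX. The cause was not tested. Of the 14 called pathway genes, Mfsd2a, Acaca, Klf15, Foxo1, Cebpa and Lpin1 kept their call under all 26 alternatives, and the others lost it in 3 to 12 of them, most often when 1 library was left out; Fabp3 and Pdp1 also lost it with quantile normalization. Groups of 2 or 3 libraries limit the precision, and intervals of the differences between DEX effects reached 1.49 for Plin4.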

Other observations

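Plin5 followed the ependymal markers from library to library. It stood at 58.7 normalized counts in PS_dex_6, which had the lowest ependymal marker score of the 16 libraries (-2.45, the mean log2 deviation of 11 genes), and at 449 in PS_dex_64, which had the highest (1.72). Deviations of Plin5 from its group mean had r = 0.97 with those of the ependymal markers and 0.82 with those of the 10 astrocyte markers, over 16 libraries. This pair was picked after its value was seen, among 63 pairs of a gene and a marker list, and the libraries share tissue pieces. Plin4, its neighbor on the chromosome, gave r = -0.06 with the ependymal markers.

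The other marker lists are given for DEX against saline averaged over phenotypes, where 4.31% of all genes were called and the median log2 difference of all genes was -0.003. In this comparison 2033 of all 14504 genes had an unadjusted p under 0.05 in limma, and DESeq2 called 904. These lists too were chosen with earlier results of these data known. Of 13 endothelial markers 1 was higher (Slc2a1) and 1 lower (Tek), with a median of -0.03. Of 9 mural markers 1 was lower (Vtn), with a median of -0.19 and 4 at an unadjusted p under 0.05 in limma, and of 10 astrocyte markers 1 was higher (Gjb6) and 1 lower (S1pr1). Of 8 choroid plexus markers 5 had values, and 1 of these was at 0 in at least 1 library. Their median was 0.44, next to 0.45 for the 8 lipid genes. By phenotype the marker median was 0.38 in control, 1.14 in PS and 0.61 in AS mice. In the average 4 of the 5 markers were above 0. Their summed level was 1029 to 2979 normalized counts after saline and 2070 to 3013 after DEX. None of 11 ependymal, 5 choroid plexus and 4 blood markers was called in limma or edgeR (DESeq2 called 1, of the choroid plexus, and 2 of the choroid plexus had an unadjusted p under 0.05 in limma), and of 2 meningeal fibroblast markers Pdgfra was higher. The part of any of these cells in the differences of the lipid genes was not tested.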
